A study of Mus musculus with 12 samples.

Results

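The heat shock chaperone genes described here are 9 mouse genes, Hspa1a, Hspa1b, Hspa1l, Hspa2, Hspa8, Hsp90aa1, Hsph1, Dnajb1 and Hspb1, measured in fetal gonads on a microarray. They were picked by gene symbol from the array's annotation. In it 30702 genes have a transcript cluster of their own, a cluster being the array's unit of measurement. Of the 9 genes, 8 have such a cluster. Hspa1b does not, and was read through 1 cluster annotated to both Hspa1a and Hspa1b, whose values belong to either gene or both and are not independent of those of Hspa1a. For a gene with more than 1 cluster annotated to it alone, the brightest of these on average across the 12 arrays was kept. Brighter clusters that Hspa1a and Hsp90aa1 share with another gene did not stand for them. This choice used signal but no comparison of groups, and it mattered for Hspa8, where the cluster kept averaged 18.85 and the next 18.77 on the log2 scale.

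Gonads came from mouse embryos at 14.5 days post coitum, on a mixed 129Sv and C57Bl/6J background, and were read on the Affymetrix Mouse Transcriptome Array 1.0. XY FOXL2+ gonads carried Rosa26-CAG-LSL-Foxl2+/f, an allele in which Cre removes a stop before Foxl2 under the CAG promoter, together with Sf1-cre+/Tg. XX control and XY control gonads were Rosa26+/+ and carried Sf1-cre+/Tg too, so the Cre transgene was shared by all embryos. The Sf1 promoter drives Cre in somatic cells of the fetal gonad, and germ cells are not its target. Each of the 3 groups had 4 arrays, and each array held 1 pair of gonads without the mesonephros. FOXL2 is the transcription factor that marks granulosa cells, and the series asks what its expression does to somatic cells of a fetal testis.

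Chaperones bind unfolded stretches of other proteins. HSP70 proteins hold and release them in a cycle driven by ATP: J-domain proteins start the cycle, nucleotide exchange factors end it, and HSP90 takes over some of the clients, while small heat shock proteins hold clients without ATP. The genes of the stress-induced members are switched on by heat shock factors, which bind repeats of a short GAA unit before the gene. In the mouse testis the family is best known for the HSP70 genes Hspa1l and Hspa2, which are active in germ cells after birth, Hspa2 in meiotic cells.

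The sequences before the genes are shown for the 4 members that hold a paired GAA unit there, since these include the members that fell. The paired motifs searched were GAANNTTC and TTCNNGAA, each its own reverse complement, so a search of 1 strand covers both, and the 2 motifs may overlap each other. The windows are the 250 bases before the start site from RefSeq's annotation of GRCm38.p6, read 5′ to 3′ on the strand of the gene, with the motif in capitals. Hsph1 and Dnajb1 each have 2 start sites in that annotation, and only the more upstream of these was searched. The shares over all promoter windows, given below, count every start site. The windows shown lie at chr17:34972157-34972406 (minus strand) for Hspa1a, chr17:34959239-34959488 (minus strand) for Hspa1b, chr5:135887669-135887918 (plus strand) for Hspb1 and chr5:149636337-149636586 (minus strand) for Hsph1.
Hspa1a: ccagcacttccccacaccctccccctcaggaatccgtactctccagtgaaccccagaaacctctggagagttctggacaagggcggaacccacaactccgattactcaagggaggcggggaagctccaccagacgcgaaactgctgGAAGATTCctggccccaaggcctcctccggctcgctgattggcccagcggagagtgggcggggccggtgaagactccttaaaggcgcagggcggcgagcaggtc
Hspa1b: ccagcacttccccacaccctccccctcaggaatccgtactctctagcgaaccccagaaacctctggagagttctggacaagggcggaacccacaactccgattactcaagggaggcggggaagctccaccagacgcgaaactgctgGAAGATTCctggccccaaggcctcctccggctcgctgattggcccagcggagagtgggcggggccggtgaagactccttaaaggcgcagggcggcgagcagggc
Hspb1: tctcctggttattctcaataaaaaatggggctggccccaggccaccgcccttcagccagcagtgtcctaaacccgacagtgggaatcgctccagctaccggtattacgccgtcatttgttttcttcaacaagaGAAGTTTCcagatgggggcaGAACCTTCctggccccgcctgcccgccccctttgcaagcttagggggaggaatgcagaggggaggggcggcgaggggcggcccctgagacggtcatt
Hsph1: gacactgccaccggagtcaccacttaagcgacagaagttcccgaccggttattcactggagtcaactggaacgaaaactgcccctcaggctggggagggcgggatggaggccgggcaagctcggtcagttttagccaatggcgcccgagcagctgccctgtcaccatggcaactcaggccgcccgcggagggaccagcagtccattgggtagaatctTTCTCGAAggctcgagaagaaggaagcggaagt

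Of the 9 members, 7 matched the RefSeq promoter table, and Hspa8 and Hsp90aa1 did not. A paired GAA unit stood in 4 of the 7 windows, against 12.8% of the 32851 promoter windows of the same length. GAANNTTC alone is in 6.69% of those windows and TTCNNGAA in 7.17%. Hspa1a and Hspa1b each had GAANNTTC at bases -104 to -97 from the start site, Hspb1 had it at -117 to -110 and again at -97 to -90, and Hsph1 had TTCNNGAA at -33 to -26. The windows of Hspa1a and Hspa1b differed at 3 of 250 bases, so their matches are not independent of each other. The start sites of Hspa1a and Hspa1l lie 547 bases apart on opposite strands, and that of Hspb1 is on another chromosome. Hspa1b starts 12918 bases from Hspa1a. These matches describe letters, not bound sites.

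Signals are given as log2 values throughout. Array medians ran from 6.149 to 6.296, and Spearman correlations between arrays of a group were 0.981 or more. Along the principal component that carried 14.1% of the variance, XY FOXL2+ replicate 1 stood apart, at 89 units from the median array against 34.3 for the next. The changes of the members that fell and the counts over gene lists are therefore also given without it. Foxl2 itself read 7.67, 8.62, 7.18 and 6.72 in the 4 XY FOXL2+ gonads, averaged 7.48 ± 0.42 in XX controls and 5.35 ± 0.21 in XY controls (SD, n = 4 each), so it was higher in both than in XY controls. The table has no detection calls. Y-linked genes, which XX gonads lack, still read between 5.99 (Eif2s3y) and 6.94 (Uba1y) in XX controls over 4 genes, so a signal in that range or under it is not shown to be above background.

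Hspa1a encodes the stress-induced cytosolic HSP70, and it showed the largest change of the 9 genes. On the log2 scale its signal was 6.14, 5.96, 6.19 and 6.20 in the XY FOXL2+ gonads, 6.06, 5.90, 5.93 and 5.87 in XX controls, and 7.73, 7.79, 8.07 and 8.25 in XY controls. All 4 XY control arrays lay above all 8 others, while the XY FOXL2+ and XX ranges overlapped. The group means were 6.12 ± 0.11 in XY FOXL2+, 5.94 ± 0.08 in XX control and 7.96 ± 0.25 in XY control (SD, n = 4 each). The log2 change of Hspa1a in XY FOXL2+ against XY control gonads was -1.84 (95% interval -2.08 to -1.59), which is 3.57-fold lower. In XX control gonads it was 4.05-fold lower than in XY control gonads, with a log2 change of -2.02 (95% interval -2.26 to -1.77). The signal in XY FOXL2+ and XX gonads lay at the level where Y-linked genes read in XX gonads, so both folds are lower bounds if the gene was silent there.

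Hspa1b encodes an almost identical HSP70. The cluster it shares with Hspa1a read 7.56, 7.62, 7.70 and 8.0 in the XY FOXL2+ gonads, 7.75, 7.56, 7.38 and 7.55 in XX controls, and 8.57, 8.84, 9.61 and 9.70 in XY controls. Again each XY control array was above every other array, and the other 2 groups overlapped. The means were 7.72 ± 0.20 in XY FOXL2+, 7.56 ± 0.15 in XX control and 9.18 ± 0.56 in XY control (SD, n = 4 each). The spread among XY controls was the widest of any member in any group, and in both clusters XY controls 3 and 4 read above XY controls 1 and 2. The log2 change was -1.46 between XY FOXL2+ and XY control (2.75-fold lower) and -1.62 between XX control and XY control (3.07-fold lower).

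Hspb1 encodes the small heat shock protein HSP27 (HSP25 in the mouse), which holds unfolded proteins and binds to actin filaments. Its signal was 7.52, 7.68, 7.50 and 7.71 in the XY FOXL2+ gonads, 7.84, 7.66, 7.87 and 7.81 in XX controls, and 8.40, 8.13, 8.25 and 8.05 in XY controls. XY controls were again the highest group with no overlap, by a smaller margin than for Hspa1a. The means were 7.60 ± 0.11 in XY FOXL2+, 7.80 ± 0.09 in XX control and 8.21 ± 0.15 in XY control (SD, n = 4 each). The log2 change was -0.61 in XY FOXL2+ against XY control (95% interval -0.81 to -0.40), or 1.52-fold lower, and -0.41 in XX control against XY control (95% interval -0.62 to -0.21), or 1.33-fold lower.

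**Figure D1:**
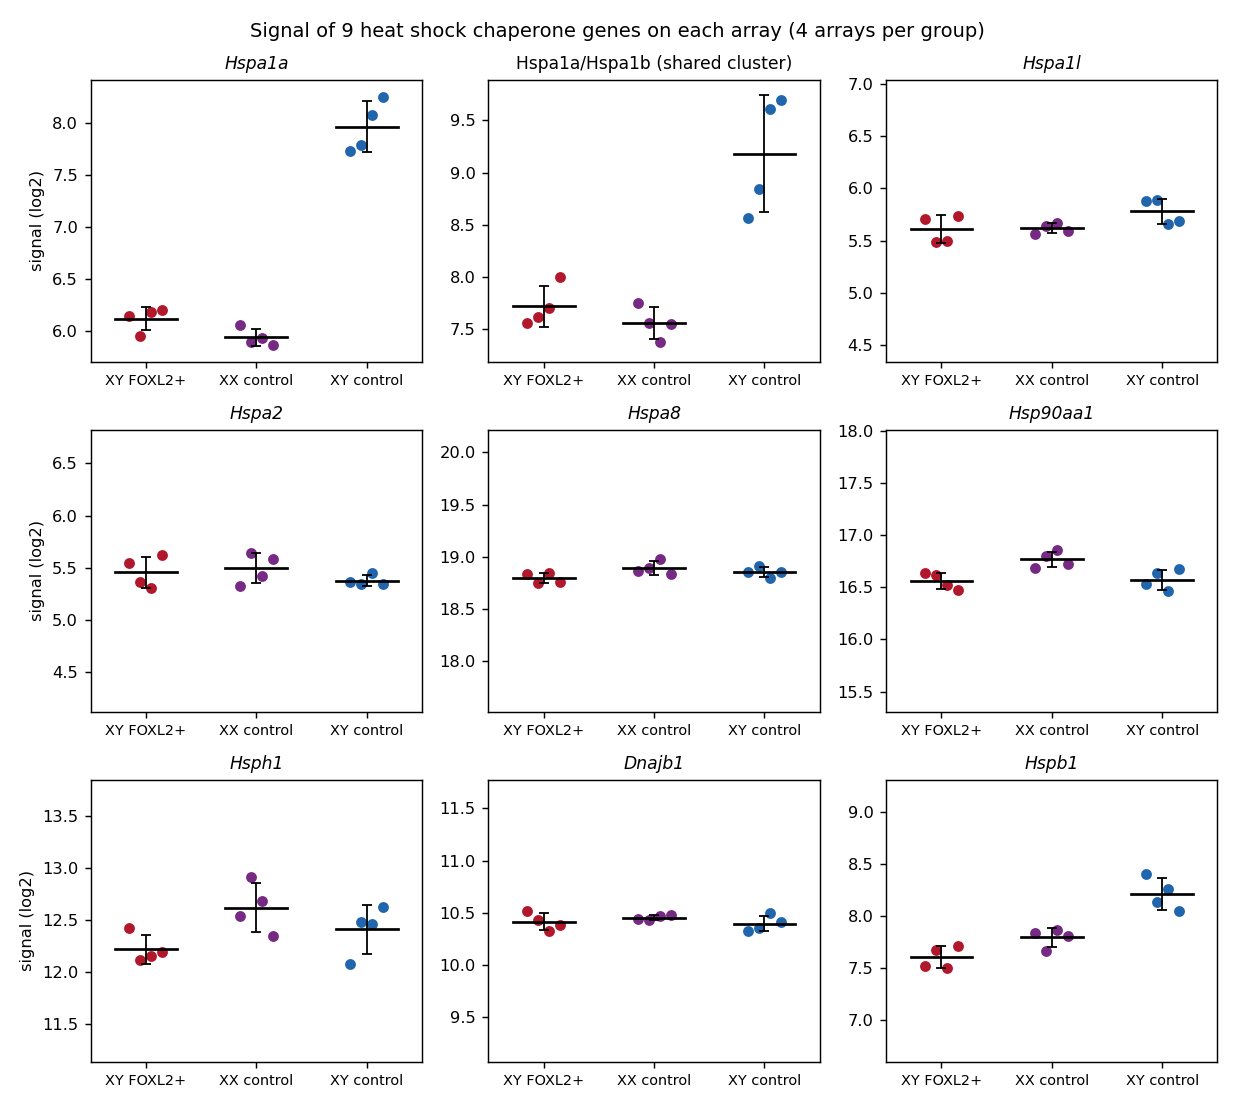
Signal (log2) of the 9 genes on each of the 12 arrays, with XY FOXL2+ on the left, XX control in the middle and XY control on the right. Points are arrays, lines are group means and bars are the SD over 4 arrays. XY controls stand above the rest for Hspa1a, the cluster shared by Hspa1a and Hspa1b, and Hspb1, while the other 6 genes lie within a narrow band.

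Differences were tested with limma over all 65956 clusters, with Benjamini-Hochberg adjustment and a threshold of 0.05. Between XY FOXL2+ and XY control gonads, 3 of the 9 members fell, 0 rose and 6 did not pass. Over all clusters, 4.67% passed as lower in this comparison and 2.46% as higher. The 3 that fell also had groups that did not overlap, as 6.97% of all clusters did on the low side and 5.23% on the high side. The adjusted p from limma was 7.88e-07 for Hspa1a, 0.00132 for the cluster shared with Hspa1b and 0.00161 for Hspb1. The exact permutation test of 4 against 4 arrays gave p = 0.0286 for each of these 3, the smallest two-sided p the design allows. The 9 genes were put together with earlier results of these data known, the fall of Hspa1a among them. The p values and counts of the members, here and below, are therefore descriptions and not fresh evidence. The values of the cluster shared with Hspa1b are also not independent of those of Hspa1a. Counts of lower members that include both, here and below, are therefore not counts of independent genes. The median change over the 9 members was -0.17, against 0.003 over all clusters.

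In XX control against XY control gonads, 3 of the 9 members were lower and 0 were higher. At an unadjusted p under 0.05 there were 4 of 9, Hsp90aa1 being added as higher, where 27.6% of all clusters were under it in either direction. At the adjusted threshold 10.2% of all clusters passed as lower and 7.17% as higher, and 14.8% did not overlap on the low side. The adjusted p from limma was 2.69e-07 for Hspa1a, 0.000204 for the shared cluster and 0.00749 for Hspb1. The median change was 0.04 over the members and -0.03 over all clusters. Both comparisons use the same XY control arrays, so the 2 sets of changes are not independent of each other.

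Set directly against XX control gonads, XY FOXL2+ gonads had 0 of 9 members called by limma, where 2.64% of all clusters passed as lower and 2.87% as higher (5.51% in either direction). At an unadjusted p under 0.05 the count was 2 of 9, Hsp90aa1 and Hsph1, both lower, where 18.5% of all clusters were under it in either direction. The change in XY FOXL2+ relative to XX control was 0.18 for Hspa1a (adjusted p = 0.438), 0.16 for the shared cluster (adjusted p = 0.776) and -0.19 for Hspb1 (adjusted p = 0.299). Over the 9 members the 95% intervals lay within -0.70 and 0.63, with the outer ends set by Hsph1 and the shared cluster. Hspa1a, Hspa1l and Hspa2 read in or below the Y-linked range in both groups, and Hspa8 near the top of the array's range. For these genes a difference may not be seen.

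Without XY FOXL2+ replicate 1, the change against XY control was -1.84 for Hspa1a, -1.41 for the shared cluster and -0.58 for Hspb1, and all 3 still passed (adjusted p at most 0.00368). Against XX control it was 0.17, 0.21 and -0.17, and 0 of 9 members were called.

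**Figure D2:**
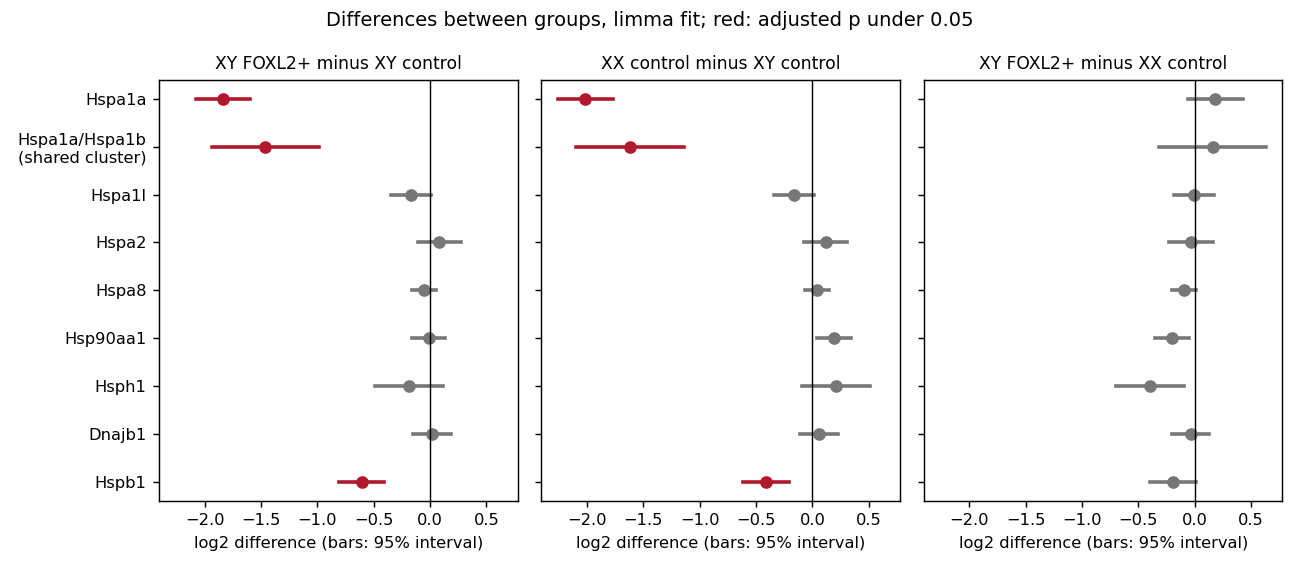
Log2 difference between groups for the 9 genes, with XY FOXL2+ minus XY control on the left, XX control minus XY control in the middle and XY FOXL2+ minus XX control on the right. Points are limma estimates, bars are 95% intervals, and red marks an adjusted p under 0.05. Hspa1a, the cluster shared by Hspa1a and Hspa1b, and Hspb1 are lower in the first 2 panels, and no gene is called in the third.

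The other HSP70 members did not pass in any comparison. Hspa8 encodes HSC70, the HSP70 that cells make all the time and that drives general folding and the uncoating of clathrin vesicles. It read between 18.75 and 18.98 on all 12 arrays, near the top of the array's range, and averaged 18.80 ± 0.05 in XY FOXL2+, 18.89 ± 0.06 in XX control and 18.85 ± 0.05 in XY control (SD, n = 4 each). Its 3 group means spanned 0.096 log2 units, the second smallest span of the 9 genes, although a signal this near the ceiling can be compressed. The cluster read here carries chromosome number 6 in its identifier, while RefSeq places Hspa8 on chromosome 9. It is therefore not shown to read the Hspa8 locus itself. The cluster with number 9, annotated to other genes too, averaged 14.86. Hspa1l, the HSP70 of maturing sperm cells, averaged 5.61 ± 0.13 in XY FOXL2+, 5.62 ± 0.05 in XX control and 5.78 ± 0.12 in XY control. Hspa2, the HSP70 of meiotic germ cells, averaged 5.46 ± 0.15 in XY FOXL2+, 5.49 ± 0.14 in XX control and 5.38 ± 0.05 in XY control. Both read below every Y-linked gene's mean in XX gonads on all 12 arrays (highest 5.89 and 5.64), so neither was shown to be above background. The change of Hspa1l, the neighbour of Hspa1a, was -0.17 in XY FOXL2+ against XY control (adjusted p = 0.272).

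Hsp90aa1 encodes the stress-responsive form of cytosolic HSP90, a chaperone of kinases and steroid receptors. Its signal was 16.64, 16.62, 16.52 and 16.48 in the XY FOXL2+ gonads, 16.69, 16.80, 16.85 and 16.73 in XX controls, and 16.53, 16.63, 16.46 and 16.67 in XY controls. XX controls were the highest group without overlap, and the XY FOXL2+ and XY control ranges overlapped almost whole. The change was -0.20 in XY FOXL2+ against XX control (adjusted p = 0.116) and 0.19 in XX control against XY control (adjusted p = 0.0769), neither past the threshold, with the exact permutation test at its floor of 0.0286 for both. Non-overlap in those directions was seen in 4.82% and 10.5% of all clusters. Under quantile normalization both differences were called, at -0.28 (adjusted p = 0.0452) and 0.37 (adjusted p = 0.00352). Under array weights, which leave the values unscaled, both were called too, at -0.24 (adjusted p = 0.0417) and 0.23 (adjusted p = 0.0131). The call for Hsp90aa1 thus depends on the processing. Between XY FOXL2+ and XY control the change was -0.01 (adjusted p = 0.949).

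Hsph1 encodes HSP110, which exchanges the nucleotide of HSP70 and holds unfolded proteins itself. Its signal was 12.42, 12.11, 12.15 and 12.19 in the XY FOXL2+ gonads, 12.53, 12.91, 12.68 and 12.35 in XX controls, and 12.07, 12.48, 12.46 and 12.62 in XY controls, with all 3 groups overlapping. Its change of -0.40 in XY FOXL2+ against XX control was the largest of any member in that comparison and did not pass (adjusted p = 0.134). Dnajb1 encodes HSP40, the J-domain partner of stress-induced HSP70. It read between 10.33 and 10.52 on the 12 arrays, averaging 10.42 ± 0.08 in XY FOXL2+, 10.45 ± 0.02 in XX control and 10.40 ± 0.07 in XY control (SD, n = 4 each), with the smallest span of group means among the 9 genes (0.056). Over the 6 members that did not pass, changes in XY FOXL2+ against XY control lay between -0.19 and 0.08, and their 95% intervals between -0.49 and 0.27. Over the same 6 genes, changes in XX control against XY control lay between -0.16 and 0.21, with intervals between -0.34 and 0.51.

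The genes most like Hspa1a in pattern were ranked by the root mean square difference over the 12 arrays, after each gene was centred on its own mean, among 30694 genes. The nearest were Gm6781 (0.165), Dhcr7 (0.173), Nsdhl (0.186), Gsta3 (0.186) and Mvd (0.200). Dhcr7, for example, averaged 8.68 in XY FOXL2+, 8.78 in XX control and 10.64 in XY control. The cluster shared with Hspa1b lay at 0.266 from Hspa1a, and the other members lay between 0.716 (Hspb1) and 0.977 (Hsp90aa1). Nearest to the shared cluster were Jakmip2 (0.190), Cdhr5 (0.226), Fdft1 (0.246), Rgs5 (0.250) and Ggh (0.252).

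Beyond the members, 9 lists of chaperone and stress genes held 89 genes, of which 81 had a cluster of their own. Between XY FOXL2+ and XY control gonads, 1 of the 81 rose and 5 fell, or 7.41%, against 7.12% of all clusters in either direction, and the median change was -0.04. This balance depends on the processing: quantile normalization called 4 higher and 2 lower, and without XY FOXL2+ replicate 1 the fit called 0 higher and 9 lower. Between XX and XY controls 12 were higher and 12 lower in XX, or 29.6%, against 17.4% of all clusters, and the median was -0.06. Between XY FOXL2+ and XX control gonads 1 was higher and 1 lower, or 2.47%, against 5.51% of all clusters. Without XY FOXL2+ replicate 1 the counts there were 1 higher and 3 lower. All clusters include 33206 without a listed gene, so the shares over them and over the 81 genes come from unlike sets.

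Among the 7 other HSP70 and HSP110 genes, Hspa12a, a distant HSP70 relative, fell in XY FOXL2+ gonads. It read 6.97, 6.89, 7.09 and 7.11 in XY FOXL2+, 6.93, 6.86, 6.83 and 6.95 in XX controls, and 8.26, 8.13, 8.27 and 8.26 in XY controls. The 4 XY control values lay close together and more than 1 log2 unit above all others, whose signal was near the upper end of the Y-linked range given above. The change was -1.22 in XY FOXL2+ against XY control (limma adjusted p = 8.7e-07) and -1.34 in XX against XY controls (adjusted p = 2.9e-07). Hspa4l, an HSP110 gene known from mouse testis, was higher in XX than in XY controls by 1.18 (adjusted p = 0.000975) and by 0.67 in XY FOXL2+ against XY control, which did not pass (adjusted p = 0.0631) but was called under quantile normalization (0.77, adjusted p = 0.0403). Hspa4l values in XY FOXL2+ were spread out, at 9.71, 10.34, 9.34 and 9.35, against 10.13 to 10.33 in XX controls and 8.81 to 9.39 in XY controls. Hspa12b was lower in XX than in XY controls by 0.45 log2 units (adjusted p = 0.012).

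Among 17 nucleotide exchange factors and HSP90 co-chaperones, 3 fell and 1 rose in XY FOXL2+ against XY control. Those that fell were Stip1, which links HSP70 to HSP90 (-0.46, adjusted p = 0.0227), Ahsa1, which speeds HSP90's ATPase (-0.44, adjusted p = 0.0408), and Bag6, which guards newly made membrane proteins (-0.42, adjusted p = 0.018). Cacybp, a partner of SGT1 and HSP90 that is named here because it was the only one to rise, gained 0.40 (adjusted p = 0.0327). None of these 4 calls held under every alternative: under quantile normalization the adjusted p was 0.0526 for Stip1, 0.0865 for Ahsa1 and 0.0686 for Bag6, and without XY FOXL2+ replicate 1 it was 0.0637 for Cacybp. Without that replicate the list had 4 genes called lower and 0 called higher.

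Bag3, a nucleotide exchange factor of HSP70 that is itself stress-induced, went the other way from Hspa1a between the controls. It read 8.47, 8.94, 7.77 and 7.77 in XY FOXL2+, 9.21, 9.37, 9.06 and 9.09 in XX controls, and 7.74, 7.38, 7.66 and 7.61 in XY controls. XX controls lay above all other arrays, and the 4 XY FOXL2+ arrays lay between the highest XY control and the lowest XX control. Bag3 was higher in XX than in XY controls by 1.58 (adjusted p = 0.000227) and lower in XY FOXL2+ than in XX by 0.94 (adjusted p = 0.0242), a call lost without XY FOXL2+ replicate 3 (adjusted p = 0.0705) and kept without replicate 1 (-1.02). In the same list Sugt1 and Hspbp1 were lower in XX than in XY controls, by changes of -0.68 (adjusted p = 0.00231) and -0.65 (adjusted p = 0.0106).

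Of 9 chaperonin genes, Hspe1, the mitochondrial HSP10, fell. It read 11.54, 11.11, 11.19 and 11.15 in XY FOXL2+, 10.84, 10.93, 11.18 and 11.03 in XX controls, and 11.75, 12.11, 11.89 and 11.77 in XY controls. XY controls were the highest group with no overlap, by a change of -0.63 for XY FOXL2+ (adjusted p = 0.0068) and -0.88 for XX (adjusted p = 0.000232). Without XY FOXL2+ replicate 1 the changes against XY control were -1.20 for Hspa12a, -0.51 for Stip1, -0.53 for Ahsa1, -0.40 for Bag6 and -0.73 for Hspe1, all past the threshold. That fit called 3 of the 9 chaperonin genes lower, against 1 in the main fit. Cct3, a subunit of the cytosolic chaperonin, was higher in XX than in XY controls by 0.40 (adjusted p = 0.00717).

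Several stress lists had no call in XY FOXL2+ against XY control by limma: 0 of 15 genes of ER stress and ER chaperones, 0 of 12 immediate early genes, 0 of 10 J-domain co-chaperones, 0 of 7 other small heat shock proteins, 0 of 3 genes of the heat shock factor list and 0 of 1 other HSP90 gene (Trap1) were called. At an unadjusted p under 0.05 there were 3 higher and 3 lower genes on the ER list, 1 higher and 2 lower among immediate early genes, 1 higher and 1 lower among small heat shock proteins, and 0 on the other lists, where 19.9% of all clusters were under it in either direction. Mean signal was no higher than the top of the Y-linked range in all 3 groups for 5 of the 12 immediate early genes (Fos, Fosb, Egr2, Atf3 and Ier3) and for 4 of the 7 small heat shock proteins, where a change may not be seen. Under quantile normalization 2 genes of the ER list were called higher, Dnajc3 (0.38, adjusted p = 0.0248) and Herpud1 (0.33, adjusted p = 0.0485). Without XY FOXL2+ replicate 1, 1 gene of the ER list was called lower and the other lists named here kept 0 calls. Hsf2, a heat shock factor, changed by -0.16 (adjusted p = 0.343). Hsf1 was not analysed here. Between the controls, 4 of 12 immediate early genes were lower in XX and 0 higher, among them Egr1 (-0.75, adjusted p = 0.00935), Klf6 (-0.65, adjusted p = 0.00349) and Zfp36 (-0.65, adjusted p = 0.00641), which are switched on within minutes by many signals. Egr1 (6.53) and Zfp36 (6.67) read inside the Y-linked range in XX controls, so these 2 changes may understate the difference. Klf6 was higher in XY FOXL2+ than in XX control by 0.59 (adjusted p = 0.0202), lost without XY FOXL2+ replicate 3 (adjusted p = 0.052) and kept without replicate 1 (0.52). Dnajb11 and Dnajc3, J-domain helpers in the endoplasmic reticulum, were higher in XX than in XY controls, by 0.68 (adjusted p = 0.00201) and 0.47 (adjusted p = 0.00322), and Calr was lower by 0.46 log2 units (adjusted p = 0.0148). Hspb6, a small heat shock protein of muscle, was higher in XX by 0.70 (adjusted p = 0.00312), and Dnaja2 by 0.44 (adjusted p = 0.00554). Dnaja4 was higher by 0.21 (adjusted p = 0.0445).

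**Figure D3:**
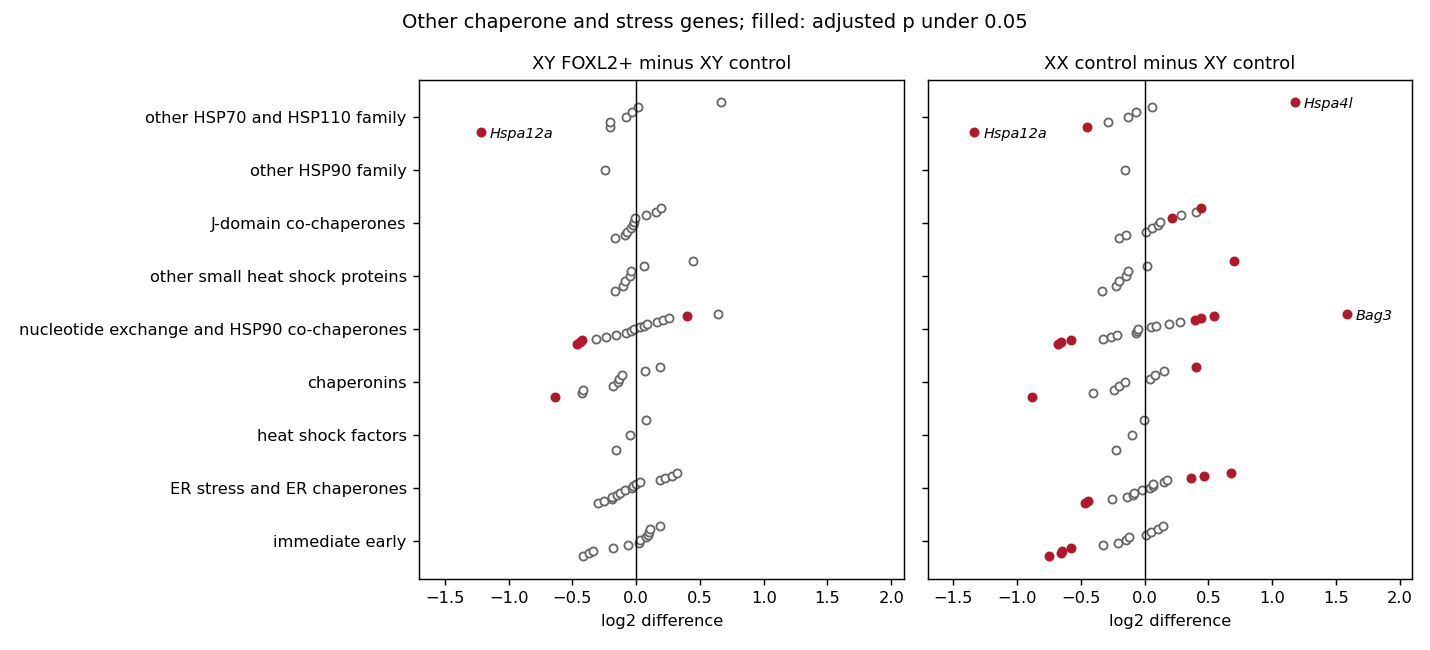
Log2 change of 81 other chaperone and stress genes in 9 lists, with XY FOXL2+ minus XY control on the left and XX control minus XY control on the right. Each point is a gene and filled points have an adjusted p under 0.05. Filled points are 1 higher and 5 lower genes on the left and 12 higher and 12 lower genes on the right, and Hspa12a lies lowest in both panels.

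These are whole gonads, so fewer cells of a type and less RNA per cell cannot be told apart. Cell type lists also differed between the groups. All 8 Sertoli cell genes, such as Amh and Hsd17b3, and all 5 fetal Leydig cell genes, such as Cyp11a1 and Star, fell in XY FOXL2+ against XY control (6 of 8 and 5 of 5 without XY FOXL2+ replicate 1) and were lower in XX than in XY controls. In XY FOXL2+ against XX control, 5 of 8 Sertoli genes were higher and 5 of 7 fetal granulosa cell genes lower. Of the 5 fetal Leydig cell genes, 1 was higher and 1 lower. The mean log2 signal of the Sertoli list was 8.47, 7.40, 9.54 and 9.37 in XY FOXL2+, 6.63 to 6.76 in XX controls and 11.11 to 11.44 in XY controls. That of the Leydig list was 9.27, 8.65, 11.23 and 11.28 in XY FOXL2+, 8.70 to 8.89 in XX controls and 15.28 to 15.63 in XY controls. Nr5a1 on the Leydig list is also active in other somatic cells of the gonad. Of the XY FOXL2+ arrays, 3 and 4 had the highest Sertoli and Leydig levels. The signal of Hspa1a in XY FOXL2+ lies at the Y-linked level, so it cannot be read against this spread. The cluster shared with Hspa1b (7.56, 7.62, 7.70 and 8.0) and Hspb1 (7.52, 7.68, 7.50 and 7.71) read above that level in XY FOXL2+. Whether they follow the spread was not tested. Smooth muscle and myoid genes fell in 4 of 5, including Acta2 and Tagln, with list means of 8.34 to 8.74 in XY FOXL2+, 8.23 to 8.62 in XX controls and 9.47 to 9.89 in XY controls.

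Other lists moved up. Of 10 meiotic germ cell genes 9 rose in XY FOXL2+ against XY control, Stra8 among them, with list means of 10.84, 13.18, 11.90 and 11.90 in XY FOXL2+, 12.92 to 13.11 in XX controls and 8.76 to 9.27 in XY controls. Fetal granulosa cell genes, with Foxl2 itself among them, rose in 4 of 7, with list means of 7.83 to 9.58 in XY FOXL2+, 9.79 to 10.12 in XX controls and 7.16 to 7.22 in XY controls. Macrophage genes rose in 4 of 7 (7.46 to 7.54 in XY FOXL2+, 7.06 to 7.33 in XX controls and 7.02 to 7.27 in XY controls) and endothelial genes in 2 of 6. Of 8 general germ cell genes 1 rose and 2 fell, of 5 mesonephric genes 1 rose and 2 fell, and 0 of 5 erythroid genes passed. Without XY FOXL2+ replicate 1 the counts were 10 meiotic genes higher, 2 germ cell genes higher and 1 lower, and 1 mesonephric gene higher and 1 lower, while those of the granulosa, macrophage, endothelial and smooth muscle lists kept their size. The part of these cell types in the levels of Hspa1a, Hspa1b and Hspb1 was not tested.

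**Figure D4:**
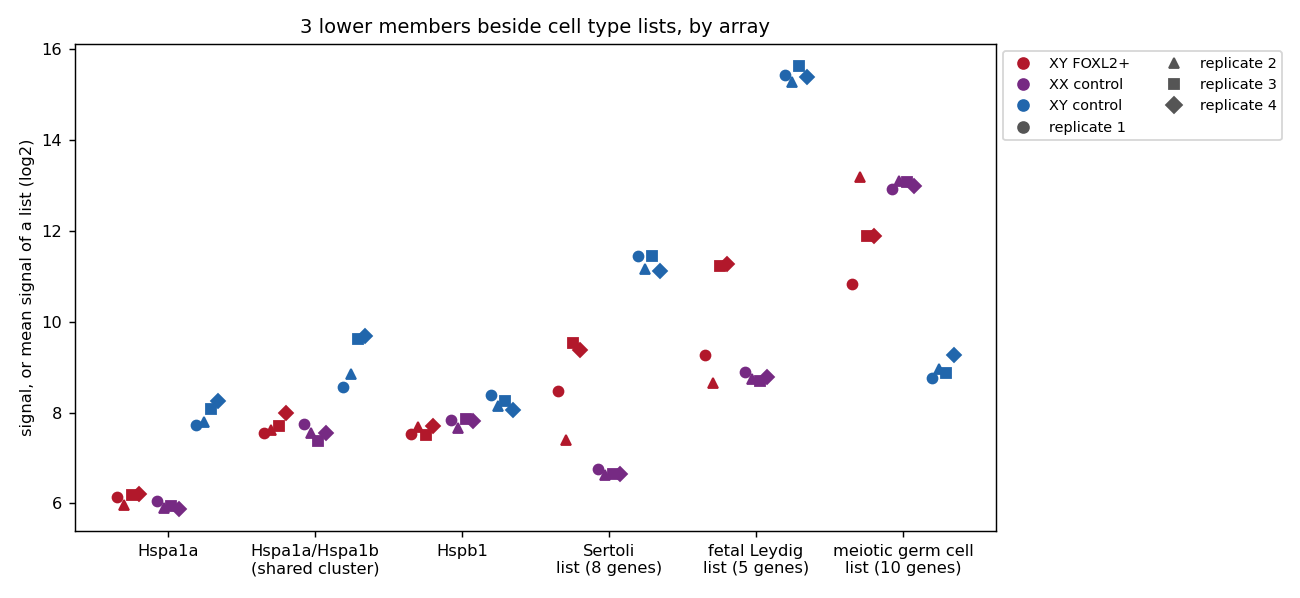
Signal (log2) of Hspa1a, the cluster shared with Hspa1b and Hspb1, beside the mean log2 signal of the Sertoli, fetal Leydig and meiotic germ cell lists, by array. Colours mark XY FOXL2+ (left), XX control (middle) and XY control (right), and marker shapes mark the replicate number, which is not known to pair arrays between groups. XY controls are the highest group for the 3 chaperone signals and for the Sertoli and Leydig lists, and the lowest for the meiotic list.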

How the data were processed

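RNA of 12 samples was hybridised to 1-colour arrays, from 100 ng amplified with the WT Plus kit, per the labels' protocols. The authors deposited 1 table of log values, taken here as log2 from their range (2.60 to 19.49). Its log base, background correction, summarization and normalization were not given in the sources used here, and another base would rescale every change. Of 72688 entries 6732 control probe sets were left out, and 65956 clusters were tested with no signal filter. Gene symbols were those of the platform annotation, brought up to date with RefSeq (1771 older symbols), with 31258 clusters of 1 symbol, 1492 of several and 33206 not listed.

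Groups were taken from the sample titles and fitted with limma 3.58.1 (R 4.3.3; lmFit, eBayes with trend) in 1 model over 12 arrays with 9 residual degrees of freedom, tested on simulated data. Tests were two-sided with Benjamini-Hochberg adjustment. All 9 members are named, and up to 3 called genes with the largest change per list and comparison. For members whose group means span at least 1 log2 unit, the 5 nearest genes in pattern are named. The members and lists were chosen with earlier results of these data known. Each array is 1 embryo per the labels, and the number of arrays limits the precision. Alternatives were quantile normalization, array weights, eBayes without trend or with robust variance, only the 2 groups compared, a signal filter, a replicate block, other clusters of a member and leaving out each array. The same alternatives for single pathway genes, and 2 of them for list counts, were added after seeing the data.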

Additional observations from a re-analysis of the deposited data

How the results depend on the processing

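The count of members that were lower stayed at 3 under all 15 alternatives in XY FOXL2+ against XY control and in XX control against XY control, and no member was called higher in the first. The members were Hspa1a, the cluster shared with Hspa1b and Hspb1 each time, with adjusted p up to 0.00132, 0.0124 and 0.0138 in the first comparison (the first value with Hspa1a read through the shared cluster) and, likewise, up to 0.000204, 0.00113 and 0.03 in the second. Under quantile normalization and under array weights, 1 member was called higher in XX control against XY control where the main count was 0. It was Hsp90aa1, at 0.37 and 0.23. In XY FOXL2+ against XX control, 1 member was called lower under the same 2 settings, again Hsp90aa1, at -0.28 and -0.24. Leaving out 1 array at a time gave 3 to 3 lower and 0 to 0 higher members in the first 2 comparisons and 0 to 0 in the third. No result changed sign past the threshold. Hspa1l and Hspa2 had no value under the signal filter. Replicate numbers did not clearly pair the arrays: the 12 same-numbered pairs correlated at -0.0906 to 0.179, with 2 over 0.1, and 3 of 12 matched best with their own number. All 3 matches, and both correlations over 0.1 (0.179 and 0.11), were in XY FOXL2+ against XX control, so a pairing of those groups is not excluded. With the replicate block, 3 members were lower in the first 2 comparisons and 0 in the third.

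Over the 81 pathway genes, quantile normalization gave 4 higher and 2 lower in XY FOXL2+ against XY control, and leaving out XY FOXL2+ replicate 1 gave 0 and 9, against 1 and 5. Among them, Hspa12a and Hspe1 kept their calls in XY FOXL2+ against XY control under all 15 alternatives, while Ahsa1 lost its call in 10, Cacybp in 7, Stip1 in 5 and Bag6 in 4. In XX control against XY control, Dnaja4 and Atf4 lost their calls in 10 of 15, Dnajb9 in 7, St13 in 6 and Calr in 1, and in XY FOXL2+ against XX control Bag3 lost it in 7 and Klf6 in 5. Causes were not tested.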

Other observations

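Besides Hspa1a, whose shared cluster is described above, 2 of the 9 genes had further clusters. Hspa8 had 3 more of its own, averaging 18.71, 18.74 and 18.77 over the 12 arrays, with changes in XY FOXL2+ against XY control of -0.04, -0.04 and -0.05. The cluster of Hspa8 that was kept carries chromosome number 6 in its identifier, and these 3 carry 1, 1 and 14. RefSeq places Hspa8 on chromosome 9. Of 31046 clusters with 1 symbol, an identifier number and a RefSeq chromosome, 99.7% had the same chromosome in both. Chromosome 9 appears in the identifier of only 1 cluster, annotated to Hspa8 together with Snord14c, Snord14d and Snord14e, which averaged 14.86 and changed by -0.01 (adjusted p = 0.941). Whether the other clusters read near-identical copies of Hspa8 was not tested. For Hsp90aa1, the clusters annotated together with Gm5844 and Gm12346 averaged 16.70 and 17.31. In XY FOXL2+ against XX control their changes were -0.34 (adjusted p = 0.122) and -0.33 (adjusted p = 0.0737), and in XX control against XY control 0.32 (adjusted p = 0.0835) and 0.27 (adjusted p = 0.088).

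In 27 groups of 4 arrays, 9 genes in 3 groups, no array lay far enough from the other 3 to pass Dixon's 95% critical value.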
